A study of Mus musculus with 2 samples.

Results

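Pyruvate made by glycolysis enters mitochondria through a carrier, is turned into acetyl-CoA by the pyruvate dehydrogenase complex, and is then oxidised in the tricarboxylic acid (TCA) cycle. Pyruvate dehydrogenase kinases switch the complex off by phosphorylation, and pyruvate dehydrogenase phosphatases switch it on again. In macrophages the cycle also supplies citrate for lipid synthesis and itaconate, an immune metabolite made from the cycle intermediate cis-aconitate. The 35 genes described here encode the pyruvate carrier, the pyruvate dehydrogenase complex with its kinases and 1 phosphatase, most enzymes of the cycle, and the carriers and enzymes that fill it or draw from it. They were taken from a list of gene names that was drawn up with earlier results of these data known and with no threshold on their values, and all 35 had a probe, out of 20655 genes that could be named on the arrays.

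RNA came from RAW264.7, a macrophage line grown from a tumor that Abelson murine leukemia virus had induced in an adult male BALB/c mouse. One culture received vehicle and the other received IR-61, a small near-infrared fluorescent dye, each for 24 h and each on 1 single-colour Agilent array (n = 1 per condition). The dose, 10 μM, is stated in the study's figure legend and not in the sample labels. Because there was 1 culture per condition, no test between conditions was possible, no p-value is given, and an effect of IR-61 cannot be told apart from a difference between cultures or arrays.

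Signal below means the background-subtracted intensity of a probe, and the log2 difference is IR-61 minus vehicle after the 75th percentile of each array was subtracted. That percentile lay 0.49 higher on the IR-61 array, so an equal relative level appears as a higher raw signal with IR-61. After scaling, the median log2 difference of the 16888 genes well above background on both arrays was still 0.10, and members are therefore also placed above or below that median. The only measurable error is the spread between repeat spots of 1 probe within an array. From it the expected SD of a log2 difference was 0.095 for most members, 0.230 for those with a log2 signal between 6 and 10, and 0.505 for those under 6. It does not include the difference between cultures. Signals of different probes were not ranked against each other.

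Of 10 macrophage markers 9 had a named probe, and all 9 were well above background on both arrays. Among them *Csf1r*, the receptor for macrophage colony-stimulating factor, had signals of 95036 with vehicle and 139205 with IR-61. The log2 differences of the 9 ranged from −0.83 for *Spi1*, a myeloid transcription factor, to 1.03 for *Adgre1*, the F4/80 antigen. Of 3 epithelial markers 1 was above background on both arrays, while all 3 fibroblast markers were, with *Col1a1*, a collagen chain, at 27148 and 58670. The 10 markers of T cells, B cells and endothelial cells were also above background, with signals of at most 2318 with vehicle. The fibroblast markers had log2 differences between 0.099 and 0.62, and the part of these markers in the results below was not tested. A change in the share of cells that express a gene and a change in RNA per cell give the same array signal.

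Few pathway genes passed the fold limits. Of the 35 members 34 were well above background on both arrays, and their log2 differences ranged from −0.66 for *Pdk3* to 1.19 for *Pdp1*, with an SD across genes of 0.36 against 0.44 for all genes. By 2-fold or more, 0 members were lower, beside 1.39% of all genes measured, and 1 was higher, beside 1.99%. At a limit of 1.5-fold, 1 member was lower and 1 higher, beside 5.68% and 9.79% of all genes. The remaining 32 members lay within 1.5-fold.

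The median log2 difference of the 34 members was −0.042, or 0.14 below that of all genes, with 22 members below the all-gene median and 12 above. The gap shrank to between −0.065 and −0.068 with the deposited log2 values, loess or quantile normalization, and with normexp, a model-based background correction, it was 0.0024 with 17 of the 34 below. It was also smaller for bright probes. The 27 members with a log2 signal over 10 on both arrays had a median of 0.090, and the 7049 such genes had 0.088. Of these 27 members, 10 (37.0%) lay more than 2 spot SD below the all-gene median, beside 30.7% of bright genes, and 6 (22.2%) lay as far above it, beside 27.8%. Both shares lay near those of bright genes as a whole. The SD across genes was 0.37 for these 27 members and 0.38 for bright genes, so their spreads were nearly equal.

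**Figure D1:**
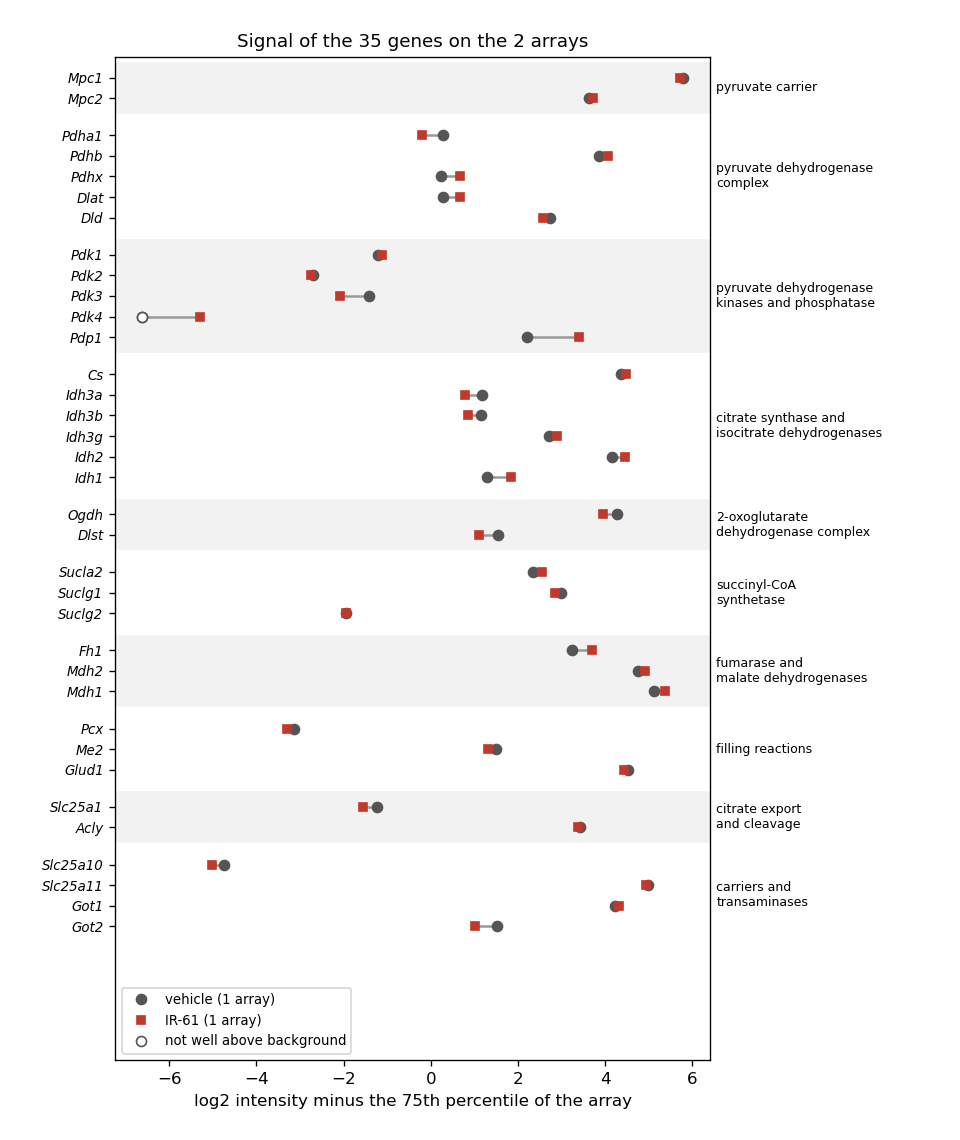
Scaled log2 intensity (log2 intensity minus the 75th percentile of the array) of the 35 genes with vehicle (circles) and IR-61 (squares), 1 array each, ordered by role. The 2 marks nearly coincide for most genes. *Pdp1* and *Pdk4* show the widest gaps to the right and *Pdk3* the widest to the left, and the open circle marks the *Pdk4* signal that was not well above background.

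**Figure D2:**
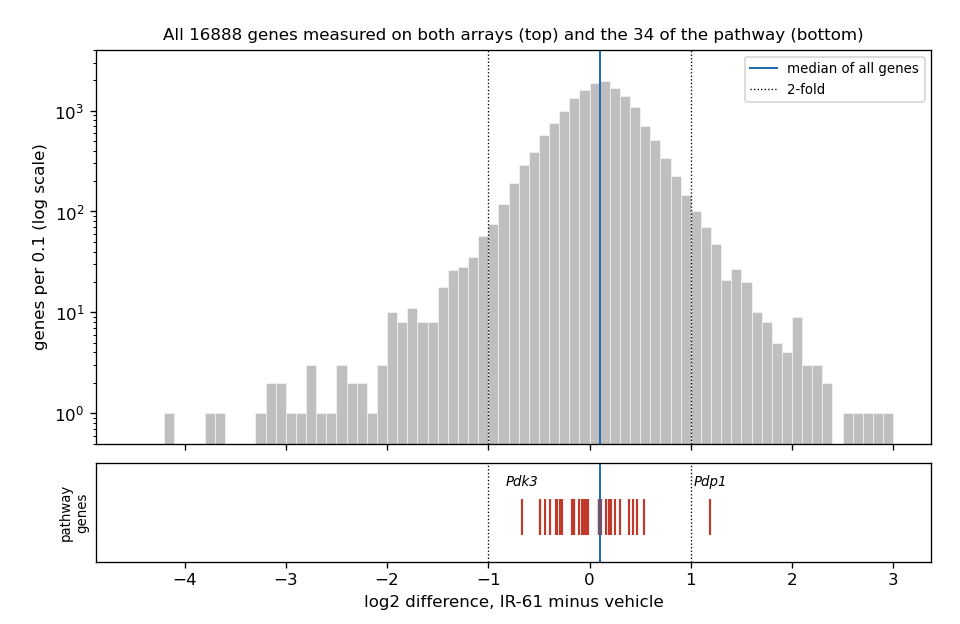
Number of genes per 0.1 of log2 difference on a log axis (top, 16888 genes) and the 34 members measured on both arrays as ticks (bottom). The blue line is the median of all genes at 0.10 and the dotted lines are 2-fold. *Pdp1* is the 1 member beyond them.

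The mitochondrial pyruvate carrier is built from *Mpc1* and *Mpc2*, which together admit pyruvate to the matrix. *Mpc1* had a signal of 70237 with vehicle and 93847 with IR-61, a log2 difference of −0.070. Its second probe gave −0.24. *Mpc2* was printed 10 times on each array, with signals from 14646 to 16911 with vehicle and from 22798 to 25907 with IR-61. On the scaled log2 axis these spots averaged 3.64 ± 0.07 and 3.73 ± 0.05 (SD over 10 spots each), the spots of the 2 arrays overlapped, and the log2 difference was 0.090. *Mpc2* thus lay −0.0097 from the all-gene median, and neither carrier gene came near the 1.5-fold limit.

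The subunits of the pyruvate dehydrogenase complex did not move together. *Pdha1*, the catalytic E1 alpha subunit that carries the phosphorylation sites, had nearly equal raw signals of 1538 and 1536, so that after scaling it was 1.41-fold lower, or −0.49 in log2 terms. *Pdhb*, its E1 beta partner, was higher by 0.22 with both of its probes, at 18340 and 29881 for the brighter. *Dlat*, the E2 acetyltransferase core, went from 1547 to 2841 with a log2 difference of 0.39. *Pdhx*, which binds E3 to that core, went from 1486 to 2802 with 0.43. *Dld*, the E3 dihydrolipoamide dehydrogenase that the 2-oxoglutarate complex also uses, was at 8462 and 10644, or −0.16, and its second probe gave −0.36. *Pdha1* and *Dld* lay below the all-gene median, and *Pdhb*, *Pdhx* and *Dlat* above it, under each of the 11 settings compared. The distance between *Pdha1* and *Pdhx* was 0.92 on the log2 scale, with an SD of 0.095 expected for each from spots. That SD leaves out differences between cultures. Among all genes with a log2 signal over 10 on both arrays, 30.7% lay more than 2 spot SD below the all-gene median and 27.8% above it. The SD across those genes was 0.38, and whether the split is particular to this complex was not tested.

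The highest and the lowest measured difference in the list, those of *Pdp1* and *Pdk3*, were both among the regulators of the complex. *Pdp1*, the phosphatase catalytic subunit that reactivates the complex, had a signal of 5843 with vehicle and 18712 with IR-61, a log2 difference of 1.19 that equals a 2.28-fold higher level. This was 12.6 times its expected spot SD, and 99.0% of all measured genes had a smaller difference. All 3 *Pdp1* probes were higher with IR-61, by 1.19, 0.99 and 0.67 from the brightest to the dimmest on the vehicle array, so the rise passed 2-fold with 1 probe. Averaged over its probes *Pdp1* had 0.95, just under the limit. Its direction was the same under all 11 settings, with log2 differences from 0.95 to 1.68.

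Of the 4 kinases, *Pdk1* and *Pdk2* stayed near the all-gene median. *Pdk1* had signals of 543 and 813, a log2 difference of 0.094, and *Pdk2* had 193 and 262, a log2 difference of −0.049, both smaller than their spot SD of 0.230. *Pdk3* was the lowest member, with 473 and 418, a log2 difference of −0.66 that equals a 1.59-fold lower level and 2.88 times the spot SD. Only 4.20% of all measured genes had a lower difference, and *Pdk3* was lower under each of the 11 settings, by −0.18 without scaling and at most by −0.75. It had 1 probe, so no second reading of the gene was at hand.

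*Pdk4*, the kinase best known for its induction during fasting, was not well above background with vehicle, where its signal was 12.9, and reached 45.1 with IR-61. The bound, 2.50-fold higher, was computed from the dim vehicle signal itself and is no strict lower limit. Its spot SD was 0.505 on the log2 scale, so the rise may also be smaller. The lowest signal of any probe well above background was 11.4 with vehicle and 14.5 with IR-61, so both *Pdk4* readings were dim. With normexp the bound was 0.083 on the log2 scale, against 1.32 here.

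In the main setting *Pdk3* and the bound of *Pdk4* lay past 1.5-fold, in opposite directions. With normexp that bound was 0.083 on the log2 scale, and without scaling *Pdk3* had −0.18. The 250 bases upstream of each annotated start are shown (RefSeq, GRCm38.p6, 5′ to 3′ on the gene's strand). The *Pdk3* window is chrX:93832151-93832400 and the *Pdk4* window is chr6:5496279-5496528, both on the minus strand. Capitals mark the CCAAT box, the binding motif of NF-Y, read on either strand.
Pdk3: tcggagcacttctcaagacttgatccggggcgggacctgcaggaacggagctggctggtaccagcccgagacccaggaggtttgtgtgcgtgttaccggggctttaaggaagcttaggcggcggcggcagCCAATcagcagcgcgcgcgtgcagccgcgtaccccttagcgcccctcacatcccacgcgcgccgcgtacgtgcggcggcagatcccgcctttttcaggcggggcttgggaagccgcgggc
Pdk4: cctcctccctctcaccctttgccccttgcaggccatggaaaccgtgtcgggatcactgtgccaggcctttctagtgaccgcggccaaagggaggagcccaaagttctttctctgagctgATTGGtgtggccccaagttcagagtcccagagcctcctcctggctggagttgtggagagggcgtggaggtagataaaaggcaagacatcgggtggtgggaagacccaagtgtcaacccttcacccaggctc
Each window holds 1 match, which begins 120 bases before the start in *Pdk3* and 131 bases before it in *Pdk4*.

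Of the 35 members 32 had a promoter in the table, and 1 window per gene, the first listed, was searched on both strands for 6 motifs, with overlapping matches counted under each. CCAAT was found in 19 of the 32 windows (59.4%), against 36.0% of the windows of 13423 measured genes and 34.5% of all 27025. Each of the other motifs was in at most 3 member windows. The E-box CACGTG was in 3 (9.4%), the ETS core CCGGAAG in 3 (9.4%) and the cyclic AMP element TGACGTCA in 2 (6.25%). The NRF1 core (GCGCA, then any base, then GCGC) and the ERR half-site AAGGTCA were in 1 each (3.1%). In all measured genes these motifs were in 7.55%, 11.1%, 2.32%, 6.55% and 3.35% of windows. The matches describe letters in these windows and say nothing of binding.

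**Figure D3:**
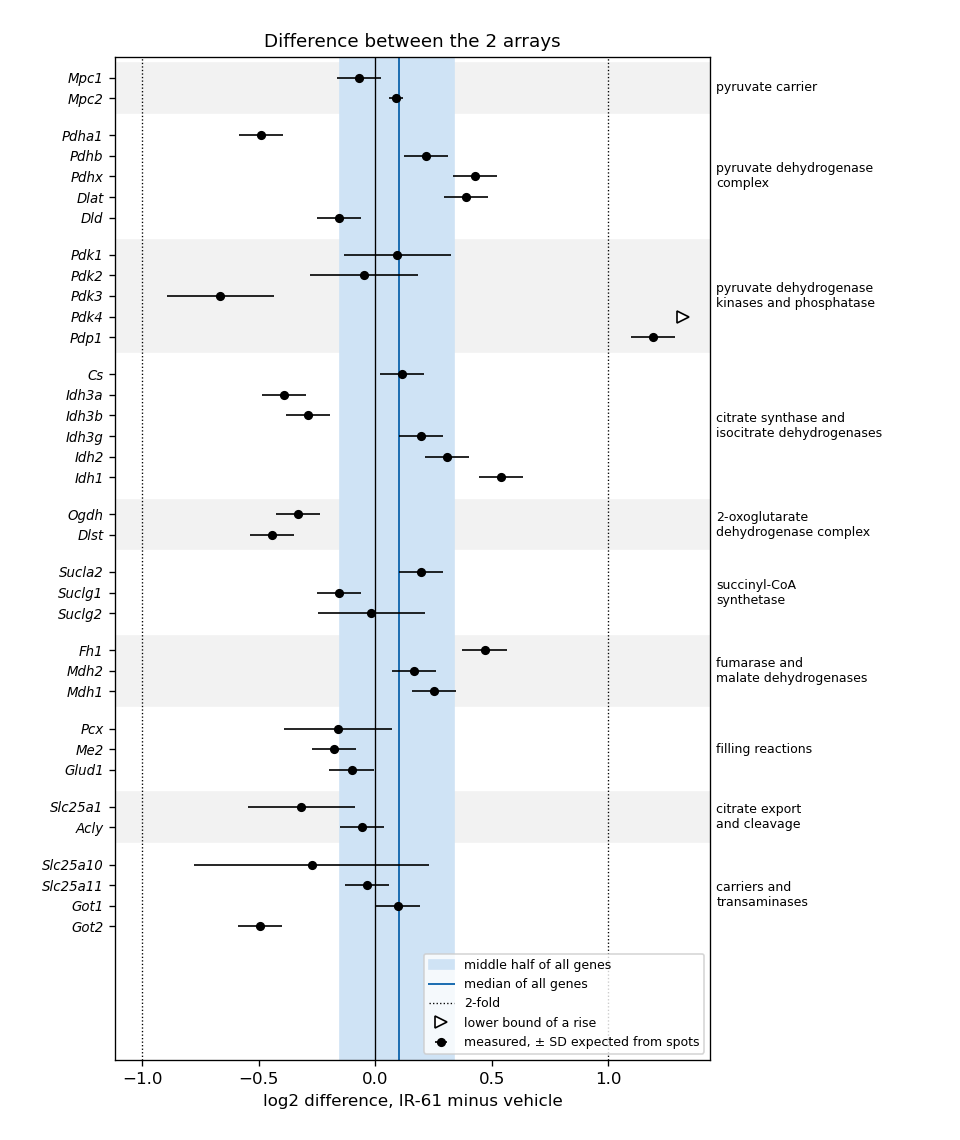
Log2 difference (IR-61 minus vehicle) of each member, ordered by role, with bars for the SD that repeat spots give, which leaves out differences between cultures. The blue band runs between the quartiles of all genes, from −0.15 to 0.34, the blue line is their median at 0.10 and dotted lines are 2-fold. Members of 1 complex lie on both sides of the line, as *Pdha1* and *Pdhx* do, and *Pdp1* and the bound of *Pdk4* lie past 2-fold.

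At the entry of the cycle *Cs*, citrate synthase, joins acetyl-CoA to oxaloacetate. Its signal was 26120 with vehicle and 39639 with IR-61, a log2 difference of 0.11 that lay 0.014 from the all-gene median. The isocitrate dehydrogenases that follow were split. Of the NAD-dependent enzyme, the catalytic subunit *Idh3a* went from 2865 to 3059 with a log2 difference of −0.39 and *Idh3b* from 2801 to 3215 with −0.29, while *Idh3g* went from 8258 to 13267 with 0.20. *Idh2*, the NADP-dependent enzyme of the matrix, went from 22644 to 39266 with 0.31. *Idh1*, its cytosolic counterpart and a source of NADPH, went from 3113 to 6347 with 0.54, a 1.45-fold higher level and the second highest measured difference of the list. *Idh3a* and *Idh3b* were below the all-gene median, and *Idh3g*, *Idh2* and *Idh1* above it, under all 11 settings.

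The 2-oxoglutarate dehydrogenase complex, the next oxidative step, was lower in both of its listed subunits besides the shared *Dld*. *Ogdh*, the E1 subunit, had signals of 24499 and 27333 and a log2 difference of −0.33, and its other probes gave −0.16 and −0.40. *Dlst*, the E2 succinyltransferase, had 3678 and 3797 and −0.44. Relative to all genes both stayed below the median under each setting, although without scaling their raw differences were positive at 0.16 and 0.046. Neither reached 1.5-fold.

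Succinyl-CoA synthetase differed little. *Sucla2*, the ATP-forming beta subunit, had signals of 6444 and 10346 and a log2 difference of 0.19. *Suclg1*, the shared alpha subunit, had 10106 and 12711 with −0.16, and *Suclg2*, the GTP-forming beta subunit, had 331 and 459 with −0.017. The distances from the all-gene median were 0.095, −0.26 and −0.12, and only that of *Suclg1* was over 2 spot SD.

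The last steps of the cycle lay above the all-gene median. *Fh1*, fumarase, which hydrates fumarate to malate, went from 11955 to 23201 with a log2 difference of 0.47, a 1.38-fold higher level. *Mdh2*, the mitochondrial malate dehydrogenase, had 34203 and 53769 with 0.16, and *Mdh1*, its cytosolic form, had 43888 and 73244 with 0.25. All 3 were above the median of all genes under each of the 11 settings, but *Mdh1* and *Mdh2* lay within 2 spot SD of it.

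The enzymes that feed carbon into or out of the cycle were each slightly below the all-gene median. *Pcx*, pyruvate carboxylase, which makes oxaloacetate, had signals of 143 and 180 and a log2 difference of −0.16. *Me2*, the mitochondrial malic enzyme, had 3575 and 4435 with −0.18, and *Glud1*, which turns glutamate into 2-oxoglutarate, had 29128 and 38065 with −0.10. The second *Glud1* probe gave −0.17. Without scaling the differences of all 3 were positive.

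Citrate leaves mitochondria through *Slc25a1* and is split to cytosolic acetyl-CoA by *Acly*, ATP-citrate lyase, the enzyme whose phosphorylation the study followed in other experiments. *Acly* had a signal of 13651 with vehicle and 18419 with IR-61, a log2 difference of −0.056 that was smaller than its spot SD. Its second, dimmer probe gave −0.00021. *Slc25a1* had signals of 540 and 608 and a log2 difference of −0.32, with a spot SD of 0.230. Array signals measure mRNA only, so phosphorylated Acly was not seen here.

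Among the carriers and transaminases that shuttle reducing equivalents, *Got2* stood lowest. *Got2*, the mitochondrial aspartate aminotransferase, had signals of 3604 and 3591, and was thus 1.41-fold lower, at −0.49. *Got1*, the cytosolic form, had 23665 and 35472 with 0.096, next to the all-gene median. The oxoglutarate carrier *Slc25a11* had 40049 and 54804 with −0.036. The dicarboxylate carrier *Slc25a10* was dim, with 47.4 and 55.0, and its −0.27 was smaller than the spot SD of 0.505. *Got2* was below the all-gene median under each setting, whereas *Got1* and *Slc25a11* changed sides.

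Members read by several probes gave readings on the same side of 0. Of the 35 members 7 had more than 1 probe, 16 probes together, and the probes of a gene differed by at most 0.52 on the log2 scale, in *Pdp1*. For *Pdhb* the readings differed by 0.0019. For *Dld*, *Mpc1* and *Ogdh* they differed by 0.20, 0.17 and 0.24.

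**Figure D4:**
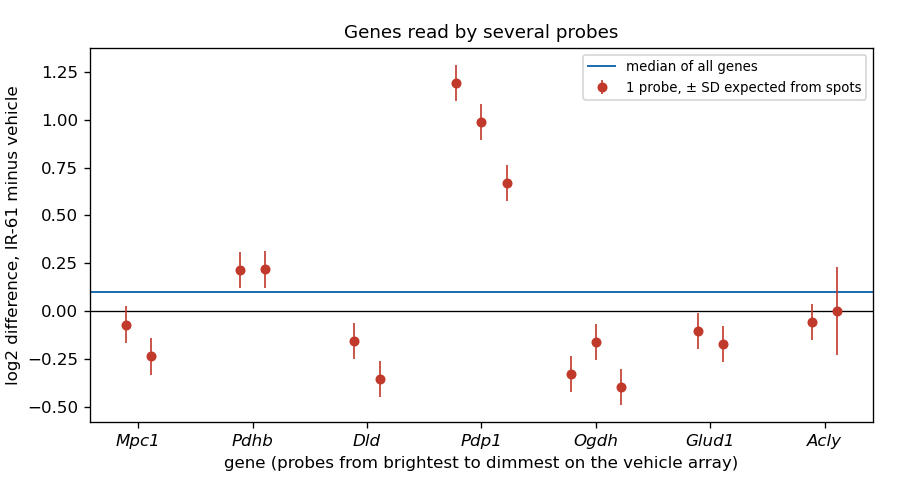
Log2 difference (IR-61 minus vehicle) of every probe of the 7 members with several probes, each bar being the SD expected from spots. The 3 *Pdp1* probes, at 1.19, 0.99 and 0.67, lie above all probes of the other 6 genes.

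Another 44 genes of the same pathways were listed, among them complex II, further carriers and lactate dehydrogenases. Of these 42 had a probe and 38 were well above background on both arrays. Their median log2 difference was 0.18, beside 0.10 for all genes, a gap of 0.077 that shrank to 0.023 with probe averages. By 2-fold or more 1 (2.63%) was lower and 0 were higher, beside 1.39% and 1.99% of all genes. By 1.5-fold or more 2 (5.26%) were lower and 6 (15.8%) higher, beside 5.68% and 9.79%. For complex II, which oxidises succinate within the cycle, the brightest probes gave 0.19 for *Sdha*, 0.021 for *Sdhb*, 0.26 for *Sdhc* and 0.015 for *Sdhd*. The second probes of *Sdhb* and *Sdhc* were lower, at −0.58 (signals of 14289 and 13385) and −0.48 (3069 and 3082), so the probes of these genes did not give 1 reading.

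The widest difference in this wider list, and the lowest of all 16888 genes, was that of *Acod1*, which makes itaconate from cis-aconitate. Its signals ranged from 6538 to 7402 over 10 spots with vehicle and from 521 to 570 over 9 spots with IR-61, without overlap, for a log2 difference of −4.16. None of the 34 measured members approached this size.

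The genes of this list that were higher by 1.5-fold or more include *Pdp2*, the second pyruvate dehydrogenase phosphatase, with signals of 326 and 706 and a log2 difference of 0.63. Its dim second probe gave 0.12. *Ldhb*, a lactate dehydrogenase subunit, went from 2542 to 6673 with 0.90. *Slc25a13*, an aspartate-glutamate carrier, had 0.61. *Me1*, cytosolic malic enzyme, had 0.61 with its brightest probe and 0.12 and −0.049 with its other probes. *Csl*, a citrate synthase-like gene, was lower by 1.53-fold, from 456 to 419, with a log2 difference of −0.61.

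**Figure D5:**
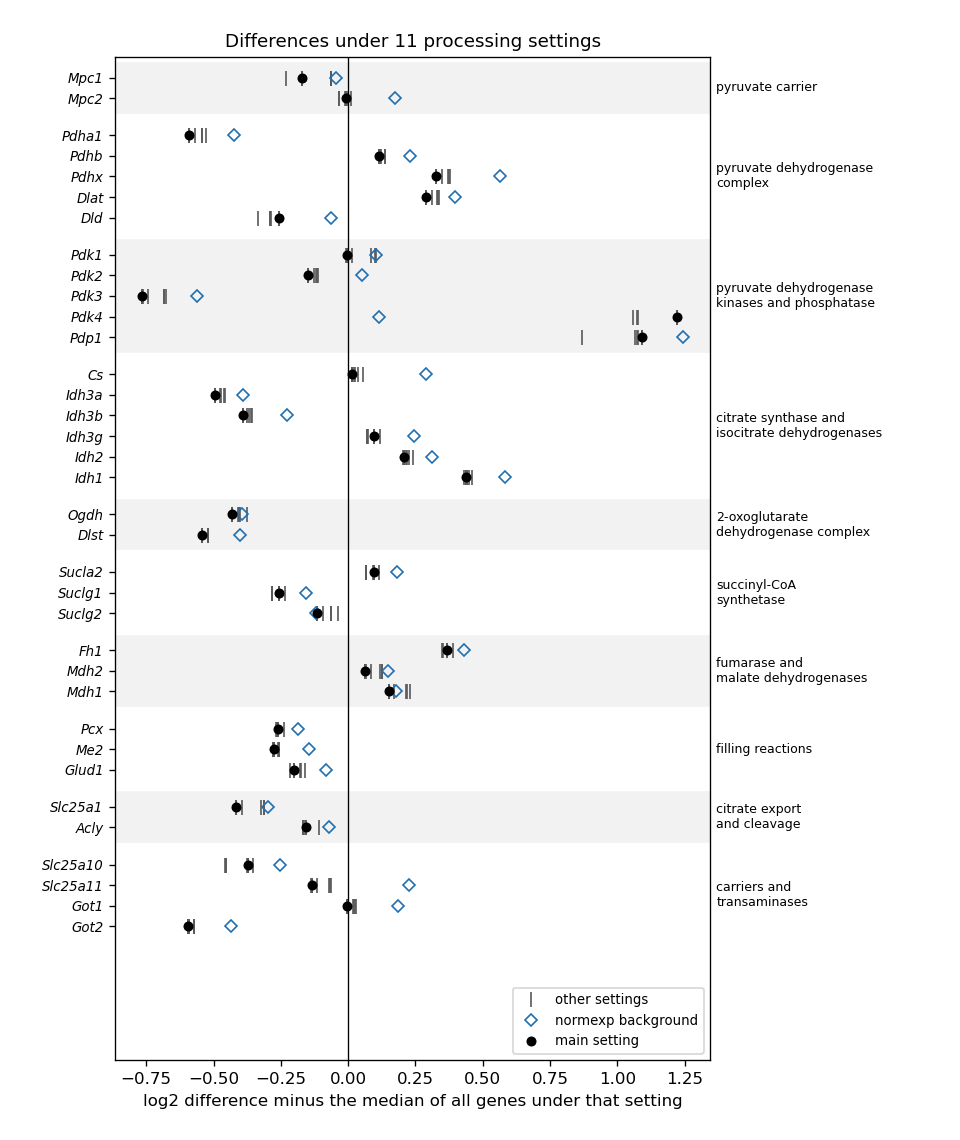
Log2 difference of each member minus the median of all genes, under 11 processing settings. Black circles are the main setting, diamonds the normexp background correction and bars the 9 others. Of the 34 measured members 17 stayed left of 0 and 12 right of it under every setting, and the *Pdk4* bound moved most, to 0.11 with normexp.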

How the data were processed

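The 2 arrays, 1 per condition, shared a slide and a scan. The deposited intensity of a spot is the processed signal of Agilent Feature Extraction, from which the authors' software had removed background and spatial trend, and flags for outliers and background accompany it. Per the file headers the software version was 11.0.1.1, and the labels give 11.0.0.1. The authors also deposited log2 values, whose making is not given in the sources used here. Here controls and outlier spots were left out (124 and 139 spots; 0 were saturated), spots of a probe were averaged on the log2 scale, and the 75th percentile was subtracted. Well above background were 77.6% and 81.2% of probes. Of 39419 probes 27224 were named through RefSeq accessions (GRCm38.p6 table), and a gene took its brightest probe. Where 1 array did not measure a gene, a bound was computed from that array's lowest signal well above background, or from the dim signal if this was larger. A bound taken from a dim signal is no strict limit. Members and lists were chosen with earlier results of these data known. All members are named, with signals in full where the list or a difference of 1.5-fold asked for it, and other pathway genes where 1.5-fold apart, some of which are not reported here. The number of arrays limits precision. The steps were tested on simulated arrays with spot noise, a scale shift and planted changes beyond 2-fold. Those arrays held no difference between cultures and no smaller changes, so the test does not cover most differences given here. The alternatives were 5 other scalings, the deposited log2 values, probe averages, outlier spots kept, no dim filter, normexp (offset 50) and a 1.5-fold limit. Python 3.11.15, numpy 2.4.6, pandas 2.3.3, statsmodels 0.14.6, matplotlib 3.10.9, R 4.3.3 and limma 3.58.1 were used.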

Additional observations from a re-analysis of the deposited data

How the results depend on the processing

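No paired analysis was possible because a pair needs a second array of either condition. Relative to the median of all genes, 29 of the 34 measured members kept their side under all 11 settings, and *Mpc2*, *Pdk1*, *Pdk2*, *Slc25a11* and *Got1* did not. The count of members higher by 2-fold or more was 1, and became 2 without scaling (with *Idh1* at 1.03), 2 without a filter on dim probes (with *Pdk4*) and 0 with the mean over probes, where *Pdp1* had 0.95. With the 1.5-fold limit 1 member was lower in place of 0.

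Leaving out the scaling raised the median of all genes from 0.10 to 0.59, that of the members from −0.042 to 0.45 and that of the other pathway genes from 0.18 to 0.67. It left 3 members below 0 (*Pdk3*, *Pdha1* and *Got2*) in place of 19. The members that turned positive were *Mpc1* (0.42), *Pdk2* (0.44), *Pcx* (0.33), *Suclg2* (0.47), *Acly* (0.43), *Slc25a10* (0.21), *Slc25a11* (0.45), *Dld* (0.33), *Idh3a* (0.095), *Idh3b* (0.20), *Ogdh* (0.16), *Dlst* (0.046), *Suclg1* (0.33), *Me2* (0.31), *Slc25a1* (0.17) and *Glud1* (0.39). This follows from the brighter IR-61 array. The distance of the members' median from that of all genes was −0.14 in the main setting, −0.065 with quantile normalization, −0.068 with loess, −0.065 with the deposited log2 values and 0.0024 with normexp. In the normexp setting, which was run on the median signal, 4 spots of the IR-61 array with a local background above their own signal took the median background, a step chosen after seeing the data. For genes with dim signals, *Pdk4* and *Slc25a10* among the members, the spread between spots limits what a difference can show.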

Other observations

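Lipoic acid, the cofactor attached to the E2 subunits *Dlat* and *Dlst*, depends on a short mitochondrial route for its synthesis and on the iron-sulfur clusters this needs. *Lias*, lipoic acid synthetase, had signals of 4625 with vehicle and 7796 with IR-61 and a log2 difference of 0.27. *Nfu1*, which delivers iron-sulfur clusters, had 0.23 (second probe 0.034), *Bola3* −0.057 (second probe −0.21) and *Glrx5*, an earlier carrier of such clusters, −0.31. These 4 genes lay on both sides of the all-gene median of 0.10, and none reached 1.5-fold. The mitochondrial deacylases *Sirt3*, *Sirt4* and *Sirt5*, which remove acyl groups from matrix enzymes, had log2 differences of 0.40, 0.17 and 0.47, equal to 1.32-fold, 1.12-fold and 1.38-fold higher levels. They lay 0.30, 0.068 and 0.37 above the all-gene median, with spot SDs of 0.095, 0.095 and 0.189. Only the distance of *Sirt3* was over 2 spot SD, and none of the deacylases reached 1.5-fold. The second, dimmer probe of *Sirt4* gave −0.31, a 1.24-fold lower level.

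The aspartate-glutamate carrier *Slc25a12* had a log2 difference of 0.11 and the glutamate carrier *Slc25a22* of 0.51, from a signal of 3450 to 6872. *Pck2*, the mitochondrial phosphoenolpyruvate carboxykinase, was printed 10 times and read on 9 spots of each array, with signals from 96.7 to 112 with vehicle and from 75.8 to 113 with IR-61. Its spots overlapped in raw signal, and on the scaled log2 axis they averaged −3.61 ± 0.06 and −4.16 ± 0.17 (SD between spots), without overlap. *Pck1* was dim on both arrays, not well above background.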
